A study of Mus musculus with 27 samples.

Results

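The EGF receptor family and its epithelial ligands were followed through mouse esophageal development and after loss of Nrf2 or Keap1. Members were taken by name: 3 receptors (Egfr, Erbb2, Erbb3) and 6 ligands (Areg, Ereg, Hbegf, Tgfa, Epgn, Btc), 9 of the 28786 genes on the array, read with 22 probes. All 9 had a probe well above background in the sample channel on at least 3 of the 27 arrays. Each of 9 groups held 3 arrays of separate biological replicates. Whole esophagus of C57BL/6J mice was taken at embryonic days 11.5 and 15.5 (E11.5, E15.5), at birth (P0) and at postnatal day 7 (P7). Whole esophagus of Nrf2-/-, Keap1-/- and Nrf2-/-Keap1-/- mice, all on the C57BL/6J background, was taken at P7. Adult samples, from mice 8 weeks old, were esophageal epithelium of C57BL/6J (wild-type) and Nrf2-/- animals, so age and tissue change together between P7 and adult. Sample RNA was labelled with Cy5 and a common reference, made from 11 mouse cell lines, with Cy3. Values are log2 ratios of sample to reference, averaged over the probes of a gene, so levels are compared between groups for 1 gene and not between genes. In bulk tissue, fewer cells of a type and less RNA per cell cannot be told apart.

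The EGF receptor is a tyrosine kinase of the cell surface that drives growth of keratinocytes in squamous epithelia. Its ligands are made as membrane-anchored precursors and are released by proteases such as Adam17, whose transport depends on the inactive rhomboids Rhbdf1 and Rhbdf2. Areg (amphiregulin), Tgfa and Epgn (epigen) bind the EGF receptor, whereas Hbegf, Ereg (epiregulin) and Btc (betacellulin) also bind its relative Erbb4. Erbb2 binds no known ligand and acts as a partner in receptor dimers, and Erbb3 is a neuregulin receptor with little kinase activity of its own. Nrf2, encoded by Nfe2l2, is the transcription factor of the antioxidant response, and Keap1 is the adaptor through which it is degraded.

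Epgn, Ereg, Areg and Btc are neighbours on mouse chromosome 5. In RefSeq annotation of GRCm38 they lie in this order between 91027517 and 91402994, a span of 375 kb whose 4 protein-coding genes are these. Egfr (16752203 to 16913907) and Erbb2 (98412484 to 98437716) are on chromosome 11. Erbb3 is on chromosome 10 (128567523 to 128589635) and Tgfa on chromosome 6 (86195038 to 86275744). RefSeq promoter windows of 300 bases were held for 6 of the 9 members, namely Egfr, Erbb2, Areg, Tgfa, Epgn and Btc. They cover 250 bases before and 50 after the gene start, except for Tgfa, whose window (86194972 to 86195271) lies mostly within the gene. The windows of Epgn (chr5:91027267-91027566, plus strand) and Areg (chr5:91139349-91139648, plus strand), GRCm38.p6, are shown because these neighbours moved in opposite directions in Keap1-/- esophagi. Capitals mark the letters TATAAA and TGACGTCA, the cyclic AMP response element.
Epgn: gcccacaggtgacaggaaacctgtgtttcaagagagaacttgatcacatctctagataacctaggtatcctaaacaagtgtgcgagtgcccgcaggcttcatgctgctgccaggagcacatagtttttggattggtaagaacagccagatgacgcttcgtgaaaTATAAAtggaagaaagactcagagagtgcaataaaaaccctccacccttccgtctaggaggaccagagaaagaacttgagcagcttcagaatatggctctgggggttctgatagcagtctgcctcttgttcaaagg
Areg: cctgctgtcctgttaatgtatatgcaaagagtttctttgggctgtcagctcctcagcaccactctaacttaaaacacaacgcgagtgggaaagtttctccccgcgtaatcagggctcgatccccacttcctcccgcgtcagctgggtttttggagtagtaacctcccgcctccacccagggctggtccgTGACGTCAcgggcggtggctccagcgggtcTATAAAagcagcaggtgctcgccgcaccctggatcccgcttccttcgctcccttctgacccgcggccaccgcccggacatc
On both strands, 0 of the 6 windows held TGACNNNGC, the core of the antioxidant response element that Nrf2 binds, which 12.4% of 32851 mouse promoter windows of this length held. Likewise 0 of 6 held the AP-1 motif TGANTCA, found in 7.81% of all windows. TATAAA (13.6% of all windows) was in the Epgn and Areg windows, and TGACGTCA (1.79%) in that of Areg. The last 2 motifs were searched after the windows had been read, and a match or its absence in so short a window is a description only.

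Arrays differed in ways that bear on the values below. The median Cy5 intensity ranged from 81.8 to 226, and 58.9% to 69.3% of spots were well above background. Pearson correlations over genes set the library labelled E11.5 replicate 3 close to E15.5 replicates 2 and 3 (0.975 to 0.98) and further from E11.5 replicates 1 and 2 (0.773 to 0.831). The reverse held for the library labelled E15.5 replicate 1 (0.927 to 0.956 with those of E11.5, 0.802 to 0.812 with those of E15.5). Labels were kept, and the members' calls between ages of the embryo and P7 are given with and without both. Calls of single probes, pathway genes and markers are given only with both arrays in the fit. The Keap1-/- arrays shared neither slide nor scan day with any other group, with a median Cy3 intensity of 115 to 147 against 223 to 386 elsewhere, so genotype, slide and scan cannot be told apart for them. Nfe2l2 lay between -3.37 and -3.14 in both P7 groups lacking Nrf2, between -2.41 and -1.72 in Nrf2-/- adults, and between -1.78 and 1.46 in all other groups. The Keap1 probe read -0.26 to 0.64 in Keap1-/- and 0.42 to 1.00 in wild type at P7, which overlap. In Nrf2-/-Keap1-/- it read -0.50 to -0.19, below wild type, and in Nrf2-/- adults, which carry Keap1, -0.62 to 0.74. Where it lies relative to the deleted part is not given in the sources used here. Nqo1, a well-known Nrf2 target, read 3.95 to 4.18 in Keap1-/- and -1.96 to 0.45 in wild type at P7. Epithelial markers (7 genes) were well above background on every array.

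**Figure D1:**
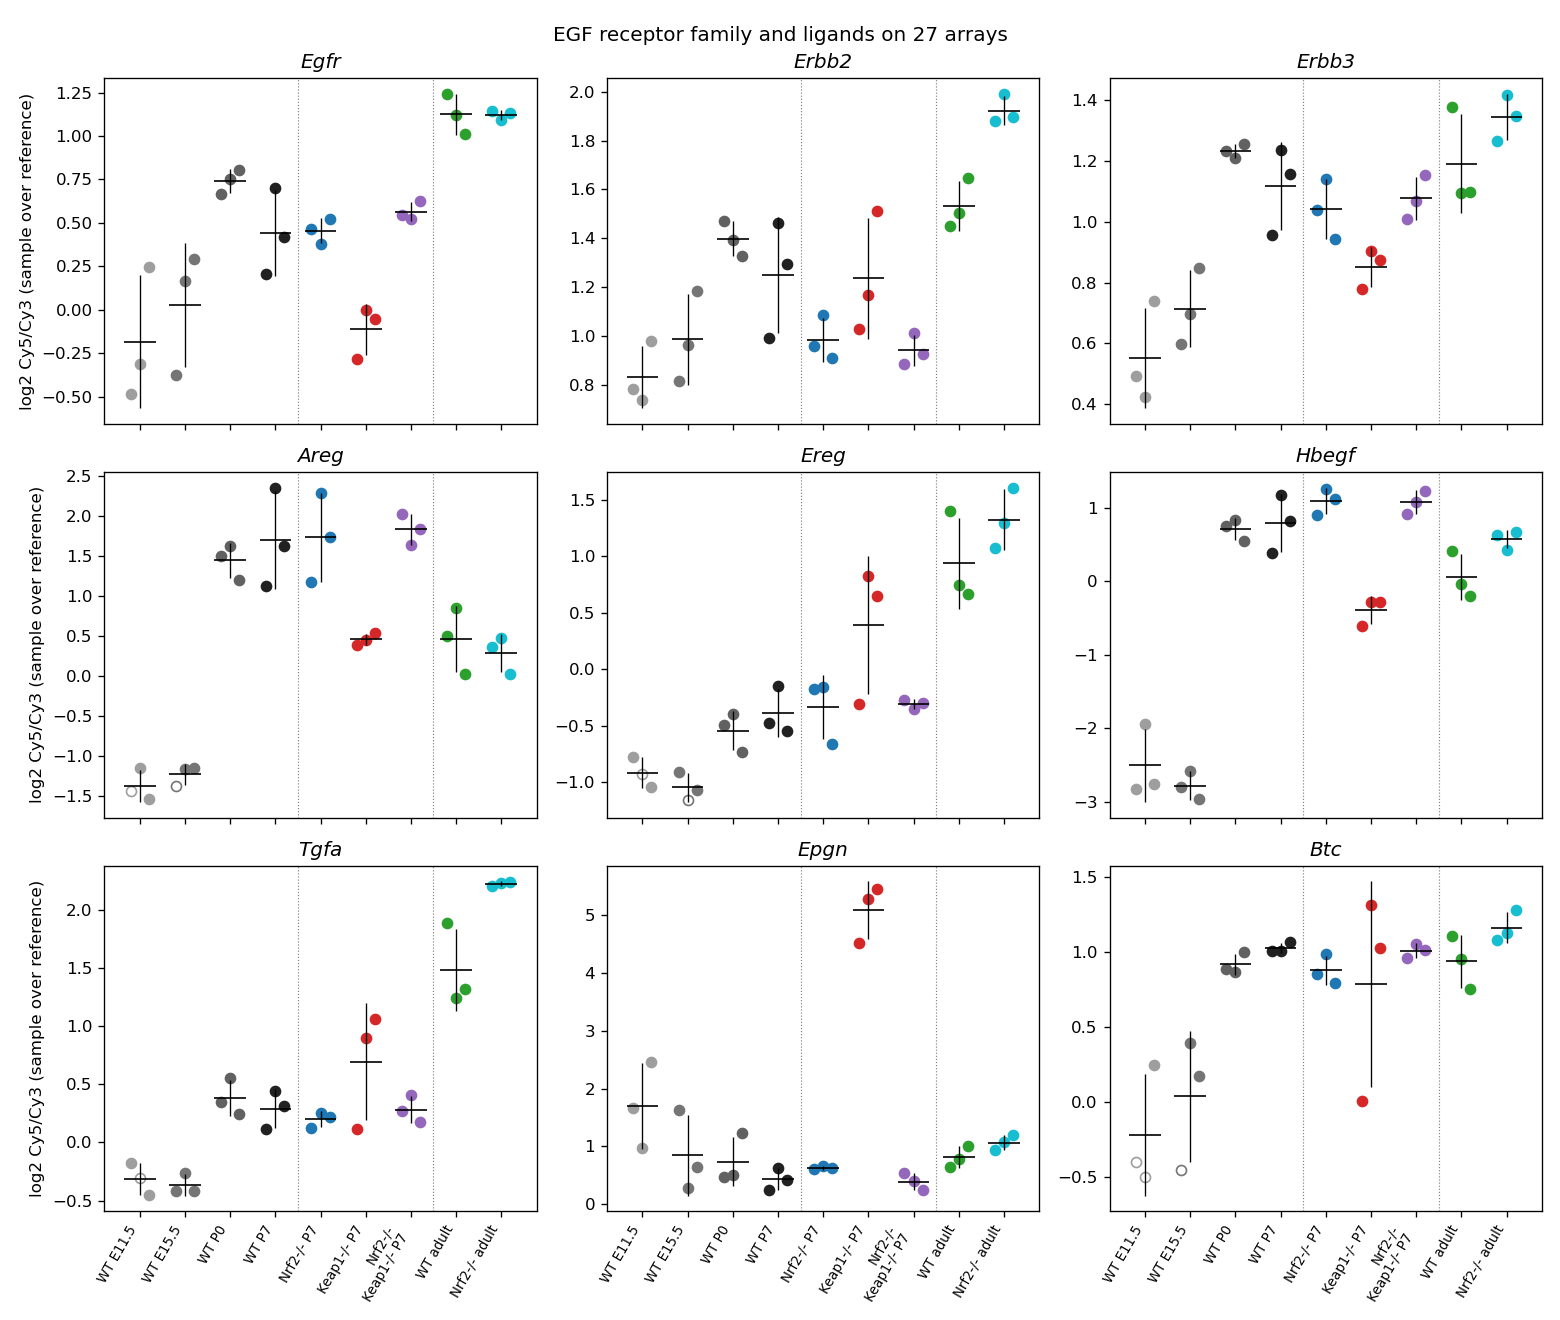
Log2 ratio of sample to reference (y axis) of the 9 members on each of 27 arrays, in 9 groups (x axis). Points are arrays, open where no probe was well above background, bars are means and lines are SD of 3 arrays; Hbegf and Areg stand lowest in the embryos, and Epgn stands highest in Keap1-/-.

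During the metaplasia phase, from E11.5 to P7, the columnar epithelium of the embryo becomes a keratinized squamous one. Over these 4 time points 8 of the 9 members passed limma's F-test (Benjamini-Hochberg adjusted p of 0.05 or lower), against 30% of the 20198 genes tested. Hbegf had the smallest adjusted p among members, 5.96e-06, and Epgn (0.119) did not pass. Without both arrays named above 8 members passed too, and the share of all genes passing in that fit is not given here. Of the 3 consecutive steps, that between E15.5 and P0 held the calls of members: 7 of 9 members rose and 0 fell, where 19.6% of genes were called, 11.2% higher and 8.4% lower. The members' median log2 change was 0.71, against -0.01 over all genes tested. With each spot's own local background the calls of Hbegf and Areg alone were kept at this step.

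Hbegf, a heparin-binding growth factor encoded on chromosome 18 (36504927 to 36515805 in GRCm38), changed most. Its log2 ratios were -2.80, -2.58 and -2.97 at E15.5 and 0.76, 0.83 and 0.55 at P0. The lowest P0 array was above the highest E15.5 array by more than the range within either group. Its raw Cy5 intensity was 401 to 672 at E15.5 and 4940 to 5034 at P0, with Cy3 between 10646 and 11966 on these 6 arrays. The rise was 11.3-fold (log2 3.50, SE 0.25, limma adjusted p = 1.58e-05). Without both arrays named above it was 3.49 (adjusted p = 8.36e-05).

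Areg, a ligand that keratinocytes make and respond to, rose at the same step. It read -1.38, -1.17 and -1.15 at E15.5, the first not well above background, and 1.50, 1.63 and 1.21 at P0. No values of these groups overlapped, and the rise was 6.40-fold (log2 2.68, SE 0.26, limma adjusted p = 0.000109). Under the alternative settings that tested them the Areg change ranged from 2.14 to 4.17 and that of Hbegf from 3.29 to 3.64, all called. Hbegf was not tested with outlier-marked spots left out, since its probe was marked on P0 replicates 2 and 3. At E11.5 Areg read -1.44, -1.15 and -1.54, which overlaps E15.5.

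As gene means, the remaining changes at this step were under 2-fold. Btc read -0.45 (not well above background), 0.39 and 0.17 at E15.5 and 0.89, 0.87 and 1.00 at P0, without overlap (log2 0.88, SE 0.23, limma adjusted p = 0.0219). This mean includes the probe A_51_P138429, well above background on 0 of 27 arrays, and the detected probe A_52_P672689 alone went from 0.03 ± 0.86 to 1.72 ± 0.08 (SD, n = 3; log2 1.69, limma adjusted p = 0.0283). With the processed signals of the scanner software Btc was at 1.61 but not called (adjusted p = 0.135). Tgfa, the classical transforming growth factor alpha, went from between -0.42 and -0.26 to between 0.25 and 0.55 (log2 0.75, adjusted p = 0.0031). Ereg, a ligand of Egfr and Erbb4, went from between -1.16 and -0.91 to between -0.74 and -0.40 (log2 0.50, adjusted p = 0.031). Neither pair of ranges overlapped, although the Ereg values remained below the reference. No Ereg probe was well above background on E15.5 replicate 2. The Ereg probe that passed alone, A_51_P171215 (0.78, limma adjusted p = 0.0272), was well above background on 0 of 3 arrays at E15.5. Ereg lost its call with its brightest probe (0.23, adjusted p = 0.318), with each spot's own local background (0.42, adjusted p = 0.358) and in a fit of all 27 arrays (adjusted p = 0.114). Without both arrays named above Areg was at 2.60 (limma adjusted p = 0.000508), Tgfa at 0.72 (adjusted p = 0.00736) and Ereg at 0.57 (adjusted p = 0.0292).

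Among the receptors, Egfr read -0.38, 0.17 and 0.29 at E15.5 and 0.67, 0.75 and 0.80 at P0 (log2 0.71, SE 0.22, limma adjusted p = 0.0457). Erbb3 read 0.60, 0.70 and 0.85 and then 1.23, 1.21 and 1.26 (log2 0.52, SE 0.12, adjusted p = 0.0135). Erbb2 was at 0.81, 0.96 and 1.18 and then 1.47, 1.39 and 1.33, which do not overlap, but missed the threshold (log2 0.41, adjusted p = 0.0689). The lowest Egfr and Btc values at E15.5 came from the array labelled E15.5 replicate 1. Without that array alone neither passed (Egfr 0.51, adjusted p = 0.15; Btc 0.64, adjusted p = 0.0643), and without both arrays named above both did (adjusted p = 0.042 for Egfr and 0.00445 for Btc). Over the 12 runs without 1 array each the call was kept in 4 for Egfr and in 8 for Btc and Ereg, and it was lost in all 3 runs without a P0 array for Egfr. The Egfr call was also lost under 9 of 15 alternative settings, among them processed signals (adjusted p = 0.0789), the brightest probe (0.0704), slide as a block (0.0551) and no filter on dim genes (0.0559). Without both arrays Erbb3 was at 0.46 (adjusted p = 0.0235) and Erbb2 at 0.32 (adjusted p = 0.164).

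Epgn, the ligand with the lowest known affinity for the receptor, was not called at this step. It read 1.62, 0.28 and 0.64 at E15.5 and 0.47, 0.50 and 1.22 at P0, which overlap, and the interval of its change ran from -1.01 to 0.79 (95%, limma). Without both arrays named above the change was 0.28 (limma adjusted p = 0.542). Its raw Cy5 intensity was between 83.3 and 194 on these 6 arrays.

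At the other consecutive steps no member was called with all arrays in the fit. From E11.5 to E15.5, 0 of 9 members were called, as were 0% of all genes (320 genes had an unadjusted p under 0.05, 0 of them members). The receptors were at 0.21 (Egfr), 0.15 (Erbb2) and 0.16 (Erbb3), and the ligands at 0.15 (Areg), -0.13 (Ereg), -0.27 (Hbegf), -0.05 (Tgfa), -0.86 (Epgn) and 0.26 (Btc), each with an adjusted p of 0.997. Without both arrays that stand against their labels Egfr rose by 0.63 (limma adjusted p = 0.0344) and Btc by 0.73 (adjusted p = 0.0044). The share of all genes called in that fit is not given here. From P0 to P7, again 0 of 9 were called, where 2.4% of all genes were (1.42% higher, 0.98% lower). An unadjusted p under 0.05 was reached by 2885 of 20198 genes and by 0 members. The changes ran from -0.30 for Egfr and Epgn to 0.26 for Areg, with Erbb2 at -0.15, Erbb3 at -0.11, Tgfa at -0.09, Hbegf at 0.08, Btc at 0.11 and Ereg at 0.16. Without both arrays named above 0 of 9 were called again. Areg read 1.13, 2.36 and 1.62 in wild type at P7, its widest spread in any group.

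From E11.5 to P7 as a whole, 7 of 9 members rose and 1 fell, where 30% of genes were called, 16.7% higher and 13.3% lower. Hbegf went from -2.83, -1.94 and -2.75 to 0.38, 1.18 and 0.83 (9.88-fold, limma adjusted p = 2.01e-05), and Areg rose 8.45-fold (adjusted p = 3.73e-05). Btc rose by 1.25, Tgfa by 0.60, Erbb3 by 0.57, Ereg by 0.53 and Erbb2 by 0.42, with adjusted p from 0.00293 for Btc to 0.0495 for Erbb2, whose call was kept in 4 of 12 runs without 1 array. The detected Btc probe alone rose by 2.37 (limma adjusted p = 0.00397). Egfr (0.62, adjusted p = 0.0558) did not pass. Deviations of same-numbered arrays correlated weakly between E11.5 and P7 (0.124 to 0.191), although the sample titles name no pairs. With the replicate number as a block Egfr passed (limma adjusted p = 0.0232) and Erbb2 did not (adjusted p = 0.0524).

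Without both arrays named above each member was called from E11.5 to P7. The share of all genes called in that fit is not given here, so this does not set the members apart from other genes. Hbegf was then at 3.18 (limma adjusted p = 4.07e-05), Areg at 3.00 (adjusted p = 6.88e-05) and Btc at 1.48 (adjusted p = 1.26e-05). Egfr was at 0.84 (adjusted p = 0.00196), Erbb3 at 0.66 (adjusted p = 0.00188) and Erbb2 at 0.49 (adjusted p = 0.0261). Tgfa was at 0.53 (adjusted p = 0.0143) and Ereg at 0.46 (adjusted p = 0.038). With median centring the calls of Erbb2 (0.25, adjusted p = 0.272), Tgfa (0.36, adjusted p = 0.0547) and Ereg (0.38, adjusted p = 0.0517) were lost, and with each spot's own local background those of Erbb2, Ereg and Epgn (adjusted p = 0.106, 0.331 and 0.215).

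Epgn was the member that fell. It read 1.67, 0.98 and 2.47 at E11.5 and 0.25, 0.62 and 0.42 at P7, without overlap (log2 -1.27, SE 0.41, limma adjusted p = 0.0373). Its highest value came from the array labelled E11.5 replicate 3, without which it was -0.89 (adjusted p = 0.102). With E15.5 replicate 1 left out as well, the change was the same and the adjusted p was 0.0275. The Epgn call was kept in 5 of 12 runs without 1 array.

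**Figure D2:**
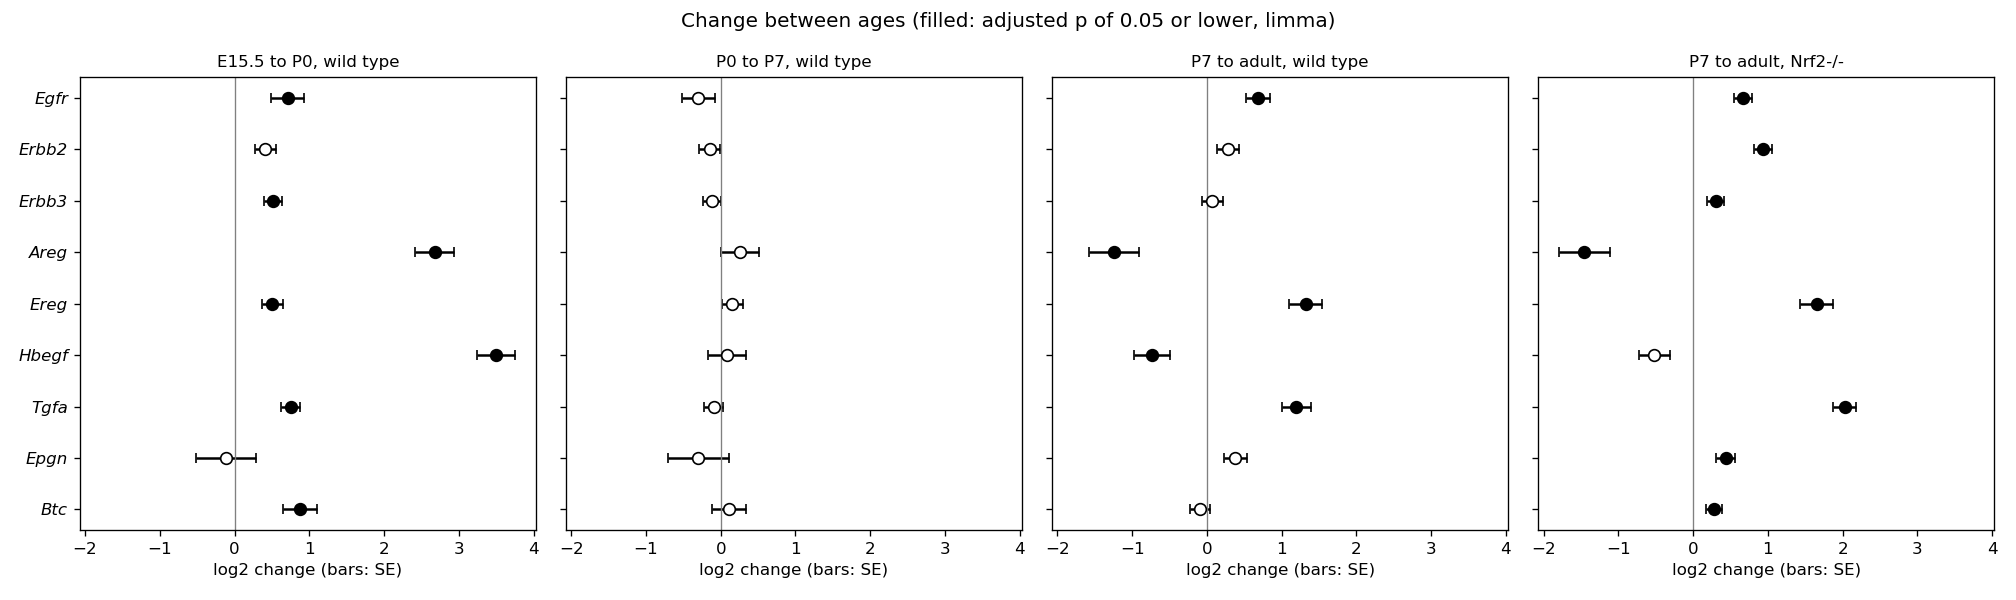
Log2 change of each member (x axis) between ages, with SE as bars, for E15.5 to P0, P0 to P7, and P7 to adult in wild type and in Nrf2-/-; filled points passed an adjusted p of 0.05. At E15.5 to P0, Hbegf (3.50) and Areg (2.68) lie farthest to the right, and from P7 to adult Areg lies left of 0 in both genotypes.

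Markers of other cells moved over the same interval. The mean log2 ratio of 7 suprabasal squamous markers was 0.76 to 2.12 at E15.5 and 2.93 to 3.25 at P0, with 2 of 7 called higher, and Ivl (involucrin) was not well above background on any embryonic array. For 6 striated muscle markers it went from between 0.15 and 2.76 to between 4.01 and 4.22, with 4 of 6 called higher. The epithelial list went from between 0.54 and 1.88 to between 2.19 and 2.41, with 1 of 7 called higher, and the mesenchymal list had 1 of 7 called lower. Their part in the members' changes was not tested.

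Of 41 other genes of the pathway tested 11 were called at birth, 26.8%, where 19.6% of all genes were. Of 4 genes for ligand shedding, 2 rose from E15.5 to P0: Rhbdf2 by 1.60 (limma adjusted p = 0.000153) and Rhbdf1 by 1.04 (adjusted p = 0.00164). Rhbdf2 read -0.28, -0.22 and -0.31 at E15.5 and 1.25, 1.47 and 1.27 at P0. Adam17, the protease itself, rose from P0 to P7 by 0.89 (adjusted p = 0.0286). Of 10 immediate targets of the pathway tested, 4 rose and 1 fell, led by the early-response genes Ier3 (3.51, adjusted p = 0.00304) and Fos (2.60, adjusted p = 0.0173). Among 10 inhibitors, Errfi1, a feedback inhibitor that binds the receptor kinase, rose by 1.44 (adjusted p = 0.00179) and Lrig1, which lowers receptor levels, fell by 0.37 (adjusted p = 0.0427). Of 12 adaptors and kinases 2 rose, Map2k1 by 0.70 and Mapk3 by 0.66, and 0 of 5 other receptors and ligands were called.

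From P0 to P7, Adam17 and the cyclin Ccnd1 (1.23, limma adjusted p = 0.00244) were the 2 of 41 pathway genes called, 4.88% against 2.4% of all genes. From E11.5 to P7, 8 rose and 2 fell, 24.4% of 41 against 30% of all genes. Of the shedding genes Rhbdf2 rose by 1.55 (adjusted p = 0.000135) and Adam17 by 0.96 (adjusted p = 0.003). The inhibitors Errfi1 (1.23, adjusted p = 0.0027) and Spry1 (0.94, adjusted p = 0.0335) and the targets Ier3 (2.47, adjusted p = 0.0114) and Phlda1 (0.85, adjusted p = 0.0109) rose too, as did the kinase Map2k1 (0.97, adjusted p = 0.00107).

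At E11.5 and in wild type at P7, though not in every group, early-response genes varied between arrays along with Hbegf. At E11.5 Fos read -4.65, -1.54 and -3.80 and Ier3 -4.34, -1.49 and -3.84, highest in replicate 2, as was Hbegf with -1.94. In wild type at P7 replicate 2 was the highest of the 3 arrays for Fos (-2.14), Ier3 (-0.16), Hbegf (1.18) and Areg (2.36). At P0 replicate 2 was highest for Hbegf (0.83) and Fos (-1.38) but lowest for Ier3 (-0.67). The part of these arrays in the members' spread was not tested.

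In the maturation phase wild-type P7 esophagus was compared with adult epithelium. Here 5 of 9 members were called, 3 higher and 2 lower, where 42.9% of 18418 genes were called (20% higher, 22.9% lower). The higher ones were Ereg, Tgfa and Egfr, and the lower ones Areg and Hbegf.

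Ereg read -0.47, -0.15 and -0.54 at P7 and 1.40, 0.75 and 0.66 in adults, and rose 2.50-fold (log2 1.32, SE 0.22, limma adjusted p = 0.00261). Tgfa read 0.11, 0.45 and 0.31 and then 1.89, 1.25 and 1.32, and rose 2.29-fold (log2 1.20, SE 0.20, adjusted p = 0.00245). For Egfr the values were 0.21, 0.70 and 0.42 and then 1.24, 1.12 and 1.01 (log2 0.68, SE 0.16, adjusted p = 0.0107). In all 3 genes every adult array was above every P7 array. These calls held with scan day as a block, at 1.46 for Ereg, 1.28 for Tgfa and 0.74 for Egfr, the values within the scan day that holds 3 P7 and 2 adult arrays. With each spot's own local background Tgfa (0.27, adjusted p = 0.563), Ereg (0.73, adjusted p = 0.0519) and Egfr (0.26, adjusted p = 0.437) lost their calls, and Egfr did so with its brightest probe (0.47, adjusted p = 0.123).

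Areg went from 1.13, 2.36 and 1.62 at P7 to 0.50, 0.85 and 0.03 in adults (2.37-fold lower, log2 -1.24, SE 0.33, limma adjusted p = 0.0193). The groups do not overlap, but the call was lost without wild-type adult replicate 1 (-1.26, adjusted p = 0.0561) or replicate 3 (-1.03, adjusted p = 0.0608) and with scan day as a block (adjusted p = 0.0605). Hbegf fell from 0.38, 1.18 and 0.83 to 0.41, -0.04 and -0.20, values that overlap (log2 -0.74, adjusted p = 0.0407). That call was lost in 4 of the 6 runs without 1 array, those without P7 replicate 2 or 3 and wild-type adult replicate 2 or 3 (limma adjusted p from 0.0904 to 0.116), and with scan day as a block (-0.61, adjusted p = 0.116). Erbb2, Erbb3 and Btc were not called, with 95% intervals of -0.07 to 0.64, -0.26 to 0.40 and -0.39 to 0.21. Epgn was not called either (0.38, adjusted p = 0.0842), though its arrays did not overlap.

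The tissues differed in cell types as well as age. All 7 mesenchymal and all 6 striated muscle markers fell, and the mean of the striated muscle list was 4.31 to 5.01 at P7 and 0.23 to 1.21 in adults. Of the suprabasal list 3 of 7 rose, and its mean went from between 3.24 and 4.64 to between 4.80 and 5.28. Of the epithelial list 1 of 7 rose and 2 fell. Their part in the members' changes was not tested.

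Of 38 other pathway genes tested 15 were called between P7 and adult in wild type, 7 higher and 8 lower. This is 39.5%, near the 42.9% of all genes. Of the other ligands and receptors of the family, 4 were tested and 1 rose, Egf, the growth factor that names the receptor. Egf read 1.33, 0.21 and 1.88 at P7 and 2.58, 2.96 and 3.28 in adults (log2 1.80, SE 0.40, limma adjusted p = 0.00976). Among 12 adaptors and kinases 4 rose and 2 fell, led by the kinase Mapk3 (0.91, adjusted p = 0.00536) and the docking protein Gab1 (0.87, adjusted p = 0.0356). Of 8 inhibitors tested 1 rose and 4 fell, with the largest falls in Lrig1 (by 0.90, adjusted p = 0.00936) and Spry4 (by 0.74, adjusted p = 0.005). Fos fell by 1.60 and Dusp6, a phosphatase induced by the pathway, by 1.59 (adjusted p = 0.00317 and 0.000273), 2 of 3 immediate targets called.

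In Nrf2-/- mice 8 of 9 members were called between P7 and adult, 7 higher and 1 lower, where 55% of 19841 genes were called (27% higher, 28% lower). All Nrf2-/- arrays of P7 were read on 1 scan day and those of adults on 2 others, so age and scan day cannot be told apart within this genotype. A fit with scan day as a block links them only through wild-type adults, of which 1 array shared a scan day with Nrf2-/- adults. Its correction therefore rests on that 1 array, and Nrf2-/- adult replicate 3, alone on its scan day, adds nothing to the estimates. In this fit the members called were Tgfa (2.26, limma adjusted p = 0.00103), Ereg (1.92, adjusted p = 0.00649), Egfr (0.83, adjusted p = 0.0281) and Erbb2 (0.78, adjusted p = 0.0349). Without the block Tgfa went from 0.13, 0.26 and 0.22 to 2.21, 2.23 and 2.24, a rise of 4.07-fold (log2 2.03, SE 0.16, limma adjusted p = 1.67e-06). Ereg went from -0.17, -0.16 and -0.66 to 1.07, 1.29 and 1.61 (3.15-fold, adjusted p = 8.77e-05). Erbb2 went from 0.96, 1.09 and 0.91 to 1.88, 1.99 and 1.90 (log2 0.94, SE 0.12, adjusted p = 7.92e-05). In these 3 genes the gap between ages was wider than the range within either age.

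Egfr rose by 0.67 (limma adjusted p = 0.000905), from between 0.38 and 0.52 to between 1.09 and 1.14, and was at 0.39 with its brightest probe (adjusted p = 0.0868). The smaller rises of Epgn (0.44, adjusted p = 0.0135), Erbb3 (0.30, adjusted p = 0.0441) and Btc (0.28, adjusted p = 0.0471) turned sign with processed signals of the scanner software (Epgn -0.0545, Btc -0.0270) or with scale normalization between arrays (Erbb3 -0.0308, Btc -0.00615). Of 12 runs without 1 array, 5 kept the call of Erbb3 and 3 that of Btc. Areg went from 1.18, 2.29 and 1.74 to 0.36, 0.47 and 0.02 (2.74-fold lower, adjusted p = 0.00378). With scan day as a block Areg was at -0.67 (adjusted p = 0.462), Epgn at 0.07 (adjusted p = 0.828), Erbb3 at 0.44 (adjusted p = 0.166) and Btc at 0.50 (adjusted p = 0.0515). Hbegf, at -0.52, missed the threshold (adjusted p = 0.0514).

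Of 40 other pathway genes tested 24 were called between these ages, 60% against 55% of all genes, 12 higher and 12 lower. Gab1 rose by 1.77 (limma adjusted p = 0.000115), Map2k1 by 1.37 (adjusted p = 6.4e-06) and the transcription factor Myc by 1.45 (adjusted p = 3.76e-06). Of the shedding genes Rhbdf2 rose by 0.66 (adjusted p = 0.00295) and Rhbdf1 by 0.60 (adjusted p = 0.00139), and of the ligands the neuregulin Nrg4 by 0.42 (adjusted p = 0.00875). Fos fell by 1.75 (adjusted p = 0.00127), Lrig1 by 1.34 (adjusted p = 7.42e-05) and Spry4 by 1.06 (adjusted p = 3.32e-05).

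Whether age acted differently in the 2 genotypes was tested as an interaction, and 0 of 9 members passed, where 0.0857% of genes did (0.0554% higher, 0.0302% lower). Of all 19841 genes tested 2217 had an unadjusted p under 0.05. Among them were 3 members: Tgfa (0.83, limma adjusted p = 0.23), Erbb2 (0.65, adjusted p = 0.23) and Btc (0.37, adjusted p = 0.41). The others were at -0.02 (Egfr), 0.23 (Erbb3), -0.21 (Areg), 0.33 (Ereg), 0.22 (Hbegf) and 0.06 (Epgn). Without wild-type adult replicate 1, the highest of its group, the Tgfa interaction was 1.03 (adjusted p = 0.0392).

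Between adult genotypes, 0 of 9 members were called by limma, where 0.428% of 18457 genes were (0.217% higher, 0.211% lower). An unadjusted p under 0.05 was reached by 3 members and by 3108 of the 18457 genes. Tgfa was at 2.21, 2.23 and 2.24 in Nrf2-/- and at 1.89, 1.25 and 1.32 in wild type (log2 0.74, SE 0.18, adjusted p = 0.128). Erbb2 was at 1.88, 1.99 and 1.90 against 1.45, 1.50 and 1.65 (log2 0.39, adjusted p = 0.18), and Hbegf at 0.63, 0.43 and 0.67 against 0.41, -0.04 and -0.20 (log2 0.52, adjusted p = 0.219). In each of these the Nrf2-/- arrays were all above the wild-type ones. Egfr was at -0.00, Erbb3 at 0.15, Areg at -0.18, Ereg at 0.39, Epgn at 0.25 and Btc at 0.22. Within the scan day that holds 1 wild-type and 2 Nrf2-/- arrays the differences were 0.90 for Tgfa, 0.29 for Erbb2 and 0.73 for Hbegf. There Egfr was at 0.11, Erbb3 at 0.24, Ereg at 0.52 and Btc at 0.35, while Areg (0.39) and Epgn (-0.01) had the opposite sign. In a fit of all 27 arrays Tgfa passed (adjusted p = 0.033), and with each spot's own local background it was at 1.67 (adjusted p = 0.0364). Of the striated muscle markers tested, the median difference was 1.73 with 0 of 5 called.

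**Figure D3:**
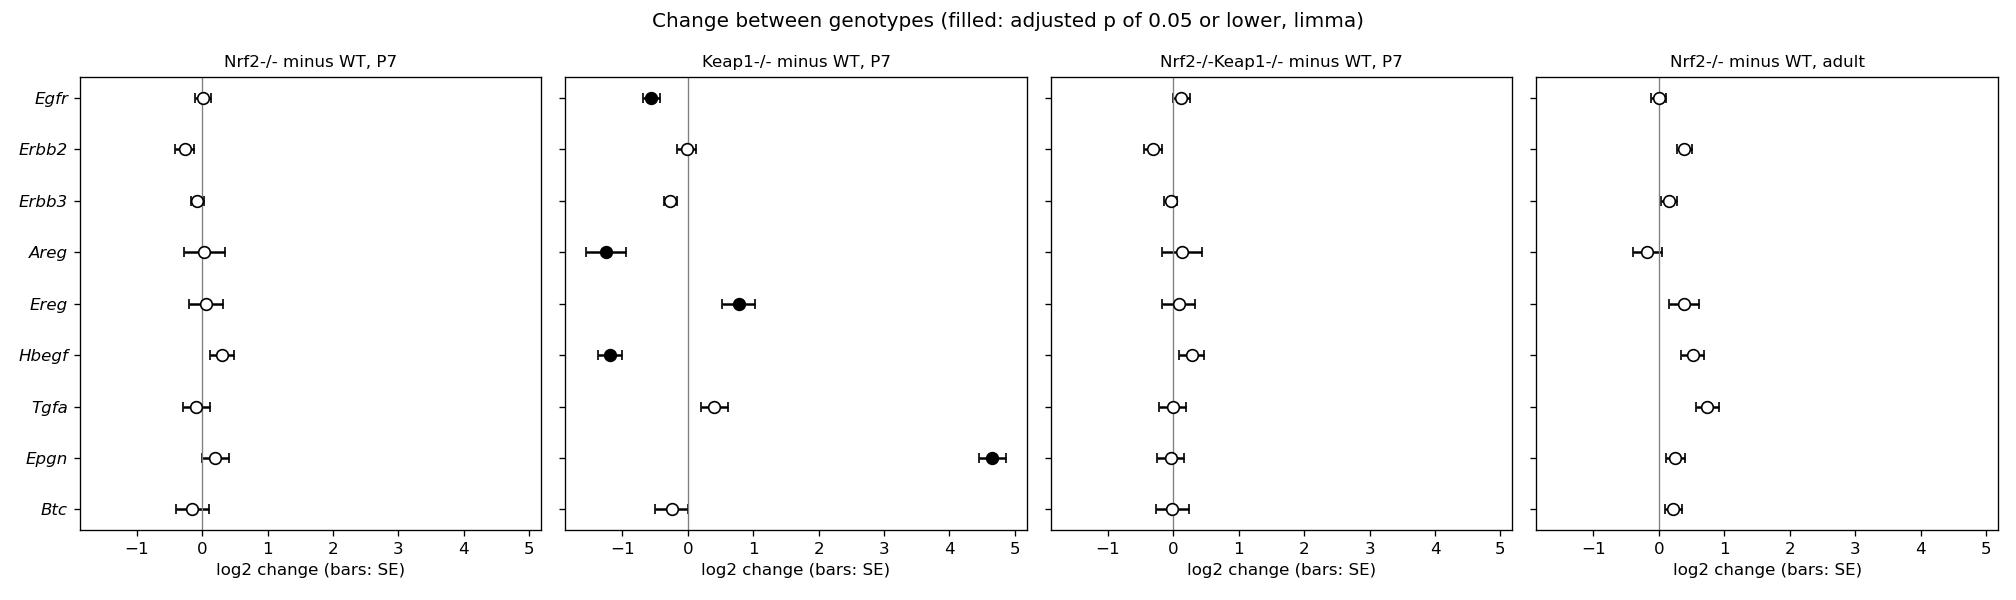
Log2 difference of each member from wild type (x axis) with SE as bars, for Nrf2-/-, Keap1-/- and Nrf2-/-Keap1-/- at P7 and Nrf2-/- in adults; filled points passed an adjusted p of 0.05. In Keap1-/- Epgn lies at 4.66 and Areg and Hbegf left of 0, and the other 3 panels hold open points for all 9 members.

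At P7 the loss of Keap1, which leaves Nrf2 active, was compared with wild type. In Keap1-/- esophagi 5 of 9 members were called, where 33.6% of 19522 genes were called (15.5% higher, 18.1% lower). Epgn and Ereg rose, and Areg, Hbegf and Egfr fell.

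Epgn read 4.52, 5.28 and 5.46 in Keap1-/- and 0.25, 0.62 and 0.42 in wild type. The raw Cy5 intensity of its only probe was 1091, 3569 and 3220 in Keap1-/- against 71.5, 81.7 and 82.6 in wild type, with Cy3 between 79.6 and 124 on the 6 arrays. This probe carried an outlier mark of the scanner software on 1 array, Keap1-/- replicate 3, which holds the highest value. The difference was 25.2-fold (log2 4.66, SE 0.21, limma adjusted p = 9.12e-08), and under every alternative that could be fitted it was between 3.68 and 4.85 and called. In Nrf2-/-Keap1-/- esophagi, which lack Keap1 but also Nrf2, Epgn read 0.54, 0.39 and 0.24. Keap1-/- was 26.0-fold above these (log2 4.70, adjusted p = 9.22e-08). Across all 9 groups the 3 Keap1-/- arrays were the highest, and the next highest was the array labelled E11.5 replicate 3 at 2.47. Outside these 2 comparisons the change of Hbegf from E15.5 to P0 (3.50) came next in size.

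Areg, its neighbour on chromosome 5, went the other way. Values were 0.39, 0.45 and 0.54 in Keap1-/- and 1.13, 2.36 and 1.62 in wild type (2.37-fold lower, log2 -1.24, SE 0.31, limma adjusted p = 0.0104). Compared with Nrf2-/-Keap1-/- (2.02, 1.64 and 1.84) Areg was lower by 2.60-fold (adjusted p = 0.00611). The Keap1-/- arrays were below every array of both other genotypes.

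Hbegf read -0.61, -0.28 and -0.28 in Keap1-/-, 0.38, 1.18 and 0.83 in wild type and 0.91, 1.09 and 1.24 in Nrf2-/-Keap1-/-. It fell by 1.19 on the log2 scale against wild type (SE 0.19, limma adjusted p = 0.000922), and the difference from Nrf2-/-Keap1-/- was -1.47 (adjusted p = 0.000252). No array of Keap1-/- overlapped either group. The single Hbegf probe carried an outlier mark of the scanner software on 11 of 27 arrays. These were P0 replicates 2 and 3, wild-type P7 replicates 1 and 3, every P7 array of Nrf2-/- and Nrf2-/-Keap1-/-, and wild-type adult replicate 1. No Keap1-/- or embryonic array was marked. In the comparisons with Keap1-/- and from E15.5 to P0 the marks thus lay on the higher side only.

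Ereg read -0.31, 0.83 and 0.65 in Keap1-/- and -0.47, -0.15 and -0.54 in wild type, with replicate 1 inside the wild-type range. It rose by 0.78 (SE 0.26, limma adjusted p = 0.038), a call kept in 5 of 12 runs without 1 array and lost, among others, without Keap1-/- replicate 2 (0.56, adjusted p = 0.146) or replicate 3 (0.65, adjusted p = 0.136). With processed signals it was at 1.31 and not called (adjusted p = 0.132). Against Nrf2-/-Keap1-/- the difference was 0.70 (adjusted p = 0.0584).

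The same Keap1-/- array stood apart in Tgfa and Btc. Tgfa read 0.12, 0.90 and 1.07 and Btc 0.01, 1.32 and 1.03, against 0.11 to 0.45 and 1.01 to 1.07 in wild type, and neither passed (limma adjusted p = 0.154 and 0.496). Without replicate 1, Tgfa was 0.69 above wild type (adjusted p = 0.00193), Ereg 1.13 (adjusted p = 0.000789) and, against Nrf2-/-Keap1-/-, Ereg 1.04 (adjusted p = 0.00131) and Tgfa 0.70 (adjusted p = 0.0019). On that array Epgn was also lowest of the 3, at 4.52.

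The receptor itself was lower as a mean over its probes, which are annotated to different transcripts and include the undetected A_52_P5855. Taken alone, A_52_P175190 and A_52_P106259 passed against wild type and the other detected probes did not. Egfr read -0.28, -0.00 and -0.06 in Keap1-/- and 0.21, 0.70 and 0.42 in wild type, without overlap (log2 -0.55, SE 0.13, limma adjusted p = 0.00681). It read 0.55, 0.52 and 0.63 in Nrf2-/-Keap1-/-, a difference of -0.68 (adjusted p = 0.00228). With median centring in place of loess the difference from wild type missed the threshold, at an adjusted p of 0.0703. Erbb3, at 0.78, 0.90 and 0.87 against 0.96, 1.24 and 1.16, missed it (log2 -0.27, adjusted p = 0.0569), and the interval of Erbb2 was -0.33 to 0.30.

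Against Nrf2-/-Keap1-/-, 4 of 9 members differed in Keap1-/- (Epgn, Hbegf, Areg and Egfr), where 33.3% of genes were called (15.1% higher, 18.2% lower). Erbb2 (0.29, adjusted p = 0.141), Erbb3 (-0.23, adjusted p = 0.1) and Btc (-0.23, adjusted p = 0.535) did not pass, although with median centring or the brightest probe Erbb2, Erbb3 and Ereg did. Nrf2-/-Keap1-/- compared with wild type gave 0 of 9 by limma (0.476% of genes called, 0.348% higher and 0.128% lower). Nrf2-/- compared with wild type gave 0 of 9 too (0.0154% called, 0.00512% higher and 0.0102% lower). An unadjusted p under 0.05 was reached by 0 members in either, and by 3411 and 2080 of 19522 genes respectively. In Nrf2-/- the members' differences from wild type ran from -0.26 for Erbb2 to 0.30 for Hbegf, with Egfr at 0.01, Erbb3 at -0.08, Areg at 0.04, Ereg at 0.06, Tgfa at -0.09, Epgn at 0.20 and Btc at -0.15. In Nrf2-/-Keap1-/- they ran from -0.31 for Erbb2 to 0.28 for Hbegf, with Egfr at 0.13, Erbb3 at -0.04, Areg at 0.13, Ereg at 0.08, Tgfa at -0.01, Epgn at -0.04 and Btc at -0.02. Intervals for Epgn were -0.26 to 0.65 in Nrf2-/- and -0.50 to 0.41 in Nrf2-/-Keap1-/-. These comparisons share the 3 wild-type P7 arrays.

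Cell type markers differed in Keap1-/- too. The mean of the mesenchymal list was 0.19 to 0.57 against 1.34 to 1.62 in wild type, with 6 of 7 lower, and that of the epithelial list 0.95 to 1.26 against 1.92 to 2.40, with 1 of 7 higher and 4 lower. Of 5 smooth muscle markers 1 was higher and 4 were lower. The suprabasal list ran from 3.07 to 4.47 against 3.24 to 4.64, with 1 of 7 higher and 1 lower. In Nrf2-/-Keap1-/- 0 of 7 epithelial and 0 of 7 mesenchymal markers were called. Their part in the members' differences was not tested.

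Of 40 other pathway genes tested 13 were called in Keap1-/- against wild type, 32.5%, near the 33.6% of all genes. Rhbdf2 read 2.22, 2.54 and 2.57 against 1.01, 1.63 and 1.22 in wild type and was the only 1 of 4 shedding genes called (log2 1.16, limma adjusted p = 0.000443). Egf read 3.12, 2.79 and 2.69 against 1.33, 0.21 and 1.88 (log2 1.72, adjusted p = 0.00483), 1 of 4 tested. In Nrf2-/-Keap1-/- Egf was at 2.97, 2.14 and 2.21, which overlaps Keap1-/-. Of 12 adaptors and kinases 2 rose and 2 fell, among them Mapk3, higher by 1.16 (adjusted p = 0.00765), and Map2k1, which fell by 0.50 (adjusted p = 0.0143). Of 10 immediate targets tested 3 rose and 1 fell. Etv4, an ETS transcription factor downstream of receptor kinases, read 0.31, 0.37 and 0.47 against -1.28, -1.54 and -1.25 (log2 1.74, adjusted p = 1.82e-06), while Fos fell by 0.84 (adjusted p = 0.0392). Of 10 inhibitors 0 rose and 3 fell, with Spry2 lower by 1.55-fold (adjusted p = 0.00778) and Lrig1 by 1.49-fold (adjusted p = 0.0156).

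Against Nrf2-/-Keap1-/-, 17 of 40 pathway genes were called in Keap1-/-, 42.5%, where 33.3% of all genes were. Rhbdf2 was higher by 1.24 (limma adjusted p = 0.000291), Rhbdf1 by 0.72 (adjusted p = 0.0127) and the neuregulin Nrg1 by 0.36 (adjusted p = 0.0127). Mapk3 (1.35, adjusted p = 0.00331), Map2k2 (0.61, adjusted p = 0.00956) and Etv4 (1.67, adjusted p = 2.42e-06) were higher too. Of 10 inhibitors 5 were lower, among them Spry1 (-0.77, adjusted p = 0.0034) and Spred2 (-0.58, adjusted p = 0.00418), as was Fos (-1.38, adjusted p = 0.00363).

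Probes of the same gene did not always move together. Egfr has 6 probes, all averaged in its gene mean, of which A_52_P5855 was well above background on 0 of 27 arrays. They are annotated to different transcripts: A_51_P392242 and A_52_P56471 share 1, A_52_P106259 and A_52_P674338 share another, and A_52_P175190 has its own. In Keap1-/- A_52_P175190 was at -1.19 ± 0.06 (SD, n = 3) against -0.05 ± 0.26 in wild type, and A_52_P106259 at 0.10 ± 0.17 against 1.18 ± 0.43. Their differences were -1.14 and -1.09 (limma adjusted p = 9.29e-05 and 0.00105), while those of A_51_P392242, A_52_P56471 and A_52_P674338 were -0.35, -0.45 and -0.40 (adjusted p = 0.176, 0.199 and 0.0595). A_52_P106259 carried outlier marks on 16 of 27 arrays. From E15.5 to P0 the larger changes were on A_51_P392242 (1.27) and A_52_P56471 (1.08), and A_52_P175190 was at 0.35 (adjusted p = 0.528).

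**Figure D4:**
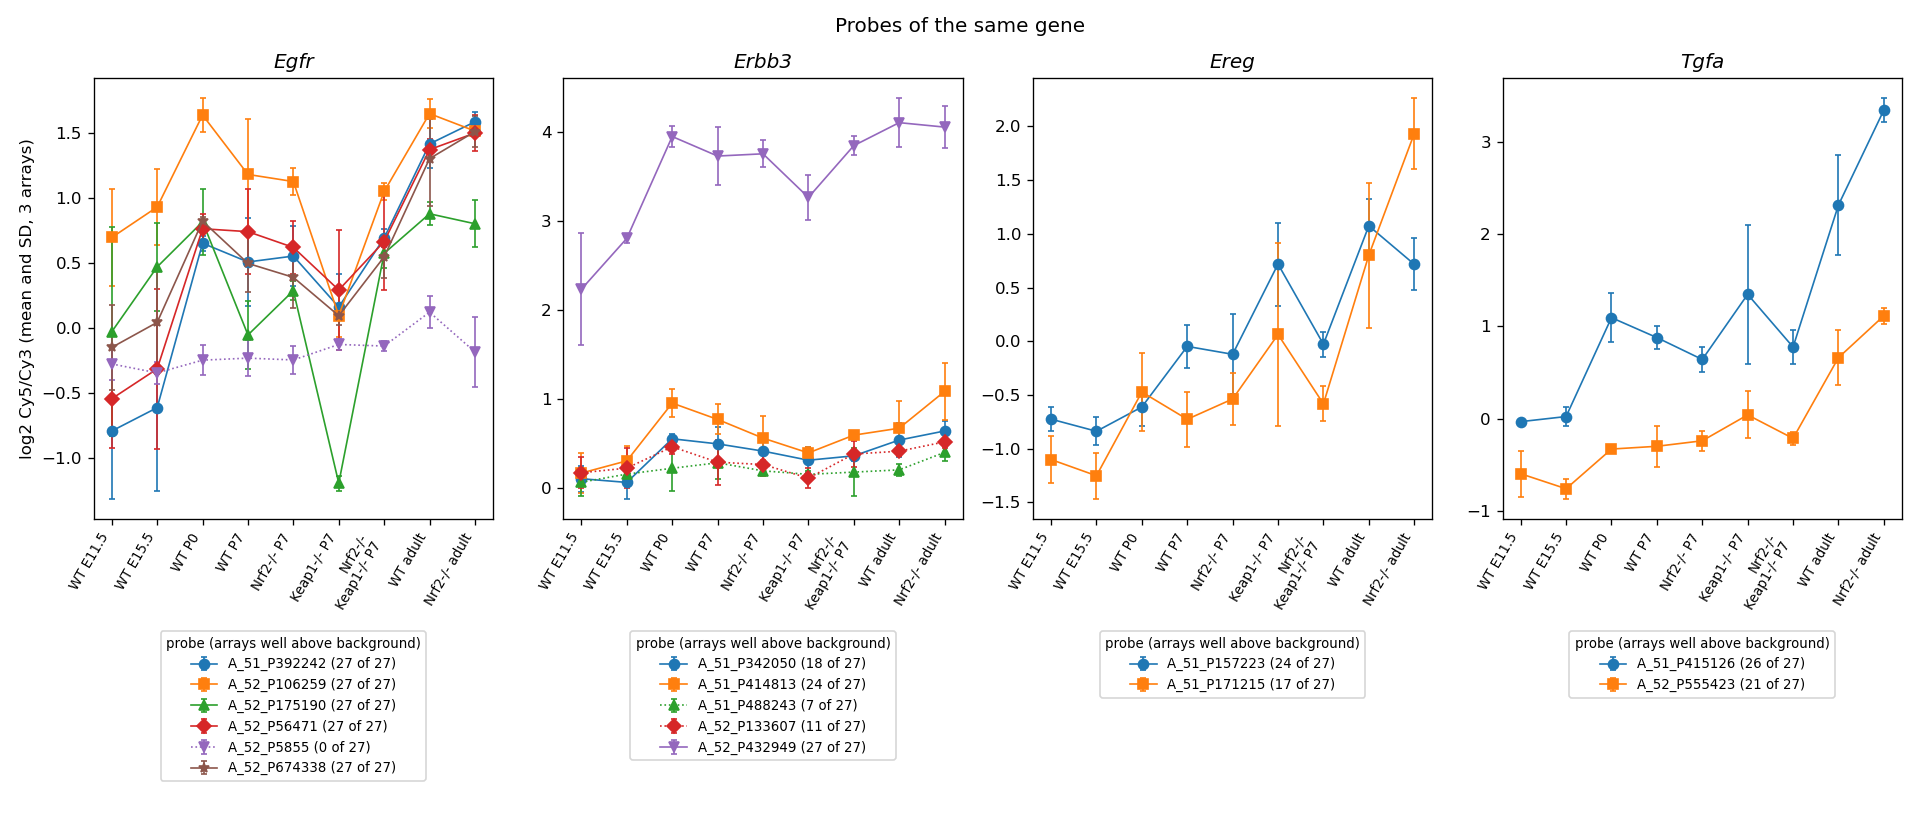
Mean log2 ratio with SD of 3 arrays (y axis) of every probe of Egfr, Erbb3, Ereg and Tgfa in the 9 groups (x axis); dotted lines are probes well above background on fewer than 14 of 27 arrays. The Egfr probe A_52_P175190 falls to -1.19 in Keap1-/-, and the Ereg probes cross between wild-type and Nrf2-/- adults.

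Erbb3 has 5 probes, all averaged in its gene mean, 3 of which rose from E15.5 to P0. Only A_52_P432949 was well above background on all 27 arrays, while A_51_P488243 was on 7 and A_52_P133607 on 11. A_51_P342050, among those that rose, was well above background on 0 of 3 arrays at E15.5. A_52_P432949, marked as an outlier on 16 of 27 arrays, rose by 1.14 from E15.5 to P0 (limma adjusted p = 0.0143) and by 1.50 from E11.5 to P7 (adjusted p = 0.00252), and the other 4 were at 0.07 to 0.65 at the first of these steps. The Ereg probes went opposite ways between adult genotypes, with A_51_P157223 at 1.07 ± 0.25 in wild type and 0.72 ± 0.24 in Nrf2-/-, and A_51_P171215 at 0.80 ± 0.67 and 1.93 ± 0.33. Neither difference passed (-0.36, adjusted p = 0.37, and 1.13, adjusted p = 0.179). Both Tgfa probes rose with age, A_51_P415126 by 1.44 in wild type and 2.70 in Nrf2-/- and A_52_P555423 by 0.96 and 1.35. Areg, Hbegf and Epgn have 1 probe each and Btc has 1 detected probe, so no second probe checks them.

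Over the 9 groups most neighbours in the order of group means overlapped, and Egfr shows the pattern. Its means were 1.12 ± 0.12 in wild-type and 1.12 ± 0.03 in Nrf2-/- adults (SD, n = 3), then 0.74 ± 0.07 at P0, 0.57 ± 0.05 in Nrf2-/-Keap1-/-, 0.45 ± 0.07 in Nrf2-/- and 0.44 ± 0.25 in wild type at P7, 0.03 ± 0.36 at E15.5, -0.11 ± 0.15 in Keap1-/- and -0.18 ± 0.38 at E11.5. Gaps without overlap lay below Nrf2-/- adults and below P0, 2 of 8 neighbour pairs. Epgn had 1 gap, below Keap1-/- (5.09 ± 0.50), the next mean being 1.70 ± 0.75 at E11.5. Hbegf had 3, with the embryos (-2.51 ± 0.50 and -2.78 ± 0.19) below Keap1-/- (-0.39 ± 0.19). Tgfa also had 3, with Nrf2-/- adults (2.23 ± 0.02) above wild-type adults (1.49 ± 0.35), and wild-type adults above Keap1-/- (0.70 ± 0.51). Areg and Erbb3 each had 2, and Erbb2, Ereg and Btc 1. Over all 9 members 16 of 72 neighbour pairs did not overlap (22.2%), where 12.6% of pairs did not over 18442 genes detected on at least 14 arrays, and the order was set by these same values.

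Over the 27 arrays, whose groups differ in age, tissue and genotype, some members resembled more than 1 other. Pearson's r was 0.958 between Ereg and Tgfa, 0.932 between Areg and Hbegf, 0.892 between Egfr and Erbb3 and 0.873 between Erbb2 and Tgfa. Next came Erbb3 with Btc (0.849), Btc with Hbegf (0.818) and Erbb3 with Hbegf (0.789). The lowest r, -0.457, was between Egfr and Epgn. Among 18441 genes detected on at least 14 arrays, those most like Hbegf were Hs3st1 (0.977) and Lmo7 (0.965), those most like Tgfa Dedd2 and Lrrc28 (0.98 each), and those most like Ereg Bmp2k (0.974) and Acpp (0.969). Epgn was most like Ush1c (0.933) and Npm3 (0.922), Egfr like Krt35 (0.961) and Atp6ap2 (0.959), and Erbb3 like Atp6ap2 (0.945) and Reep3 (0.944). Btc was most like Arg1 (0.946). These correlations describe arrays that share their group structure and carry no test.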

How the data were processed

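RNA was measured on 27 Agilent two-colour arrays. Per the file headers, images were read with Agilent Feature Extraction 10.5.1.1 or 10.7.3.1 (the submitters' processing notes name 9.1). The authors deposited mean and local background intensities of each spot in both colours, and log10 ratios of Cy5 to Cy3 from the same arrays, which served as an alternative. Here, spots whose local background exceeded 5 times the array median were left out, intensities were corrected by normexp (offset 50) and normalized by loess, and log2 ratios computed from the deposited intensities were averaged over spots, then over probes. Outlier-marked spots were kept. Names came from the files, updated through RefSeq accessions (22951 of 41174 probes matched). Tests covered genes for which some probe exceeded background clearly in Cy5 on 3 or more arrays of the fit, with limma 3.58.1 in R 4.3.3 (with statmod 1.5.0 and version 1.17.8 of data.table), in 5 fits of the groups compared, with Benjamini-Hochberg adjustment over all genes tested. Samples were grouped by their labels. Alternatives changed the background correction, normalization, probe choice, filter, blocks and arrays. The limma script was tested on simulated data. SAM, the method the study states, was not used here.

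Members, pathway and marker lists were chosen with earlier results of these data known. By rule all 9 members were named in every comparison, and pathway genes where called and among the 2 largest changes of their list. Arrays have no read depth, and their number limits the precision. Whether replicate numbers pair samples was checked through 60 correlations of deviations from group means, which ranged from -0.46 to 0.641. All 3 exceeded 0.1 between E11.5 and P7, P0 and P7, and Keap1-/- and Nrf2-/-Keap1-/-, where a block on the number is reported if it changed a call. No other groups met this rule, and the sample titles name no pairs.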

Additional observations from a re-analysis of the deposited data

How the results depend on the processing

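Counts of members called were recomputed under 17 alternative settings and without each of 27 arrays. Shares of all genes called under these settings are not given in this section. Its counts therefore describe the members' calls and not a difference from other genes. With each spot's own local background, 5 members were called by the F-test, 2 from E15.5 to P0, 5 from E11.5 to P7, 2 from P7 to adult in wild type, 3 in adult Nrf2-/- against wild type and 2 in the interaction. With at least a 2-fold change required, 2 were called from E15.5 to P0, 4 from E11.5 to P7, 3 from P7 to adult in wild type, 3 in Nrf2-/- and 3 in Keap1-/- against wild type. Median centring gave 5 from E11.5 to P7, 5 from P7 to adult in Nrf2-/- and 7 in Keap1-/- against Nrf2-/-Keap1-/-, and the brightest probe of each gene also gave 7 in the last. From P7 to adult, scan day as a block gave 3 in wild type and 4 in Nrf2-/-, and software version as a block 3 and 5. In Nrf2-/- the correction of either block rests on 1 wild-type adult array. A fit of all 27 arrays called 1 member between adult genotypes, and leaving out both arrays that stand against their labels 2 from E11.5 to E15.5. The cause of these shifts was not tested.

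Without 1 array at a time, 6 to 9 members were called by the F-test, 4 to 7 from E15.5 to P0, 5 to 9 from E11.5 to P7, 3 to 5 from P7 to adult in wild type and 6 to 9 in Nrf2-/-, 4 to 6 in Keap1-/- against wild type and 4 to 6 against Nrf2-/-Keap1-/-, 0 to 1 in the interaction and 0 in the other 5 comparisons. Hbegf and Areg from E15.5 to P0, and Epgn, Areg, Hbegf and Egfr in Keap1-/-, were called in all 12 such runs of their fit. Sign was reversed in P7 to adult in Nrf2-/- for Erbb3 (-0.0308, scale normalization between arrays), Epgn (-0.0545, processed signals and the deposited values alike) and Btc (-0.0270 with processed signals, -0.00615 with scale normalization).

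With the replicate number as a block, 7 members were called from E15.5 to P0, 8 from E11.5 to P7, 4 from P7 to adult in wild type and 6 in Nrf2-/-, 5 in Keap1-/- against wild type, 4 against Nrf2-/-Keap1-/- and 0 in the other comparisons. In the comparisons that met the rule for this block (E11.5 to P7, P0 to P7 and Keap1-/- against Nrf2-/-Keap1-/-) it changed the calls of Egfr and Erbb2 from E11.5 to P7 and no other call. Slide could not be fitted as a block for Keap1-/- against wild type, Nrf2-/- against wild type at P7 or E11.5 to P7, nor scan day for Keap1-/- against the other P7 groups, since groups and blocks coincide, and all arrays from E11.5 to P7 of wild type were read on 1 scan day. With outlier-marked spots left out, Hbegf was not tested in any fit but that of adult genotypes.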
